A study of Mus musculus with 15 samples.

Results

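Splenic regulatory T cells (Treg) that carried both an active form of Notch1 and a deletion of Rbpj were compared with Treg that carried the Cre allele alone. The N1c_RBPJdel group (3 arrays) combines RBPJfl/fl, R26N1c/N1c and Foxp3EGFPcre, and its titles give Rbpj as deleted. The control group (4 arrays) carries Foxp3EGFPcre only, so the Cre and green fluorescent protein of the Foxp3 locus are shared by every cell studied. These 7 arrays were chosen from 15 by their titles, and all 19752 genes read by a transcript cluster (the array's unit of measurement) that names 1 gene entered the comparison. The remaining arrays, 4 of N1c (R26N1c/N1c with Foxp3EGFPcre) and 4 of RBPJdel (RBPJfl/fl with Foxp3EGFPcre), are drawn on where they show what either change did alone. Cells came from the spleens of 6-week-old males. They were sorted as CD3+, TCRbeta+, CD4+ and GFP+ after lysis of red cells, with CD8+, B220+, CD11b+, CD11c+ and Gr1+ cells excluded. Several mice were pooled for each array (Affymetrix Mouse Gene 1.0 ST, with probes along the exons of each gene), which took RNA of between 40000 and 50000 cells. Recombination is limited to cells that have expressed Foxp3. N1c_RBPJdel cells went through a FACSAria and those of every other group through a MoFlo. Sorter and genotype therefore cannot be told apart in any comparison of N1c_RBPJdel with another group below.

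Notch receptors are cut when they bind a ligand on a neighbouring cell, and the freed intracellular part enters the nucleus. There it joins the DNA-binding protein RBPJ and a Mastermind coactivator and switches on target genes such as those of the Hes and Hey families. Without the Notch fragment RBPJ can hold corepressors at the same sites, so loss of RBPJ can remove both activation and repression. R26N1c supplies the intracellular part of Notch1 without a ligand. The fragment is also known to act in T cells through routes that do not use RBPJ, among them the PI3K, AKT and mTORC2 pathway. The comparison therefore asks how Treg with active Notch1 but without its DNA-binding partner differ from Treg that carry Cre only. Treg suppress immune responses, and in the spleen they range from resting cells, with a programme shared with naive T cells, to effector Treg that carry tissue-homing receptors and suppressive molecules.

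Treg identity markers were present on every array. None of the 9 (Foxp3, Il2ra, Ctla4, Ikzf2, Tnfrsf18, Cd3e, Cd3d, Cd3g and Cd4) passed the test between the groups, and their summed intensity was 29184 to 33051 on N1c_RBPJdel and 30935 to 33297 on control arrays. Foxp3, the factor that defines the lineage, had intensities of 4290.3, 4943 and 3543 on the N1c_RBPJdel arrays and 4761, 5331, 5012 and 4834 on the control arrays. The 2 groups overlap, and the change was -0.24 ± 0.13 (log2, limma SE; adjusted p = 0.257).

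Of the 19752 genes, 1757 differed between N1c_RBPJdel and control at an adjusted p under 0.05 (8.9%). Of these, 745 rose (3.77%) and 1012 fell (5.12%), so 42.4% of the called genes were higher. After quantile normalization, which gives every array the same distribution of values, 1169 genes were called (5.92%), 623 higher (3.15%) and 546 lower (2.76%), and 53.3% of them were higher. On both scalings 396 genes rose and 447 fell, and no gene was called in opposite directions. Changes of at least 1 on the log2 scale, a factor of 2, were few among the genes called on the deposited values, with 33 up and 14 down. A gene is said to have held where it was called in the same direction on the deposited values, after quantile and after cyclic loess normalization, and without each of the 7 arrays in turn, 10 fits in all. By this rule, which was made after the data were seen, 320 genes held (1.62%), of which 125 rose (0.633%) and 195 fell (0.987%). A limma fit of the N1c_RBPJdel and control arrays alone is not among the 10. Some calls that held were lost in that fit, among them Itga1, Ms4a1, Tbx21, Apaf1, Lcn2, Ngp and Poglut1 (adjusted p = 0.0501 to 0.0715).

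Array values moved together in ways that bear on the counts of called genes. The spread of log2 values on an array, from the lower to the upper quartile, was 2.58, 2.93 and 2.56 on N1c_RBPJdel arrays 1, 2 and 3, and 2.99, 2.94, 2.96 and 2.79 on control arrays 2, 3, 4 and 5. N1c_RBPJdel arrays 1 and 3 were thus narrower than every control array, and array 2 lay within the control range. Among genes brighter than the median gene 2.1% rose and 9.92% fell on the deposited values, against 5.45% and 0.324% among dimmer genes. After quantile normalization 4.26% of the brighter genes rose and 4.24% fell. The fall also went with the length of the gene. Brighter genes were split into quintiles by gene span, the distance from annotated start to end in GRCm38.p6. In the quintile with a median span of 103 kb 26.7% of genes fell, against 1.37% in the quintile with a median of 3.66 kb, and after quantile normalization the shares were 12.1% and 0.71%. The median log2 difference of the longest quintile minus that of the shortest, each relative to the control mean, was -0.35, -0.29 and -0.26 on the N1c_RBPJdel arrays, against -0.02, 0.02, -0.03 and 0.02 on the control arrays. It also lay between -0.09 and -0.26 on the RBPJdel and between -0.03 and -0.19 on the N1c arrays. The part of this trend in any single gene was not tested. As a measurement beside each gene, values are also given after the trend with span was removed from the quantile-normalized values of each array, called span-adjusted below. On that scale 870 genes were called (4.4%), 524 higher (2.65%) and 346 lower (1.75%). Of the genes that had held, 121 of 125 higher ones and 126 of 195 lower ones were called in the same direction there.

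**Figure D1:**
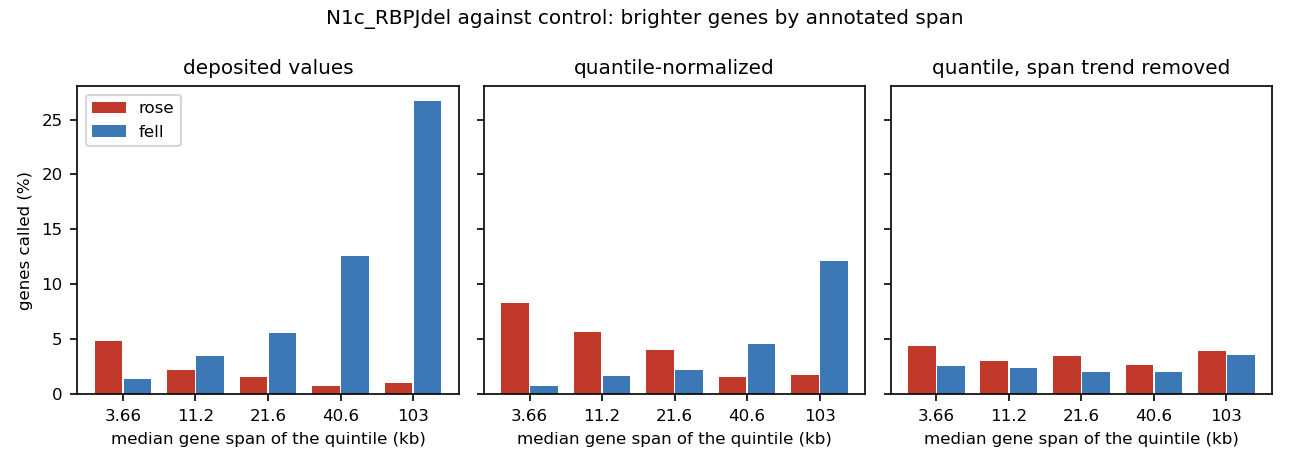
Percentage of brighter genes that rose (red) or fell (blue) in N1c_RBPJdel against control, in quintiles of genes ordered by annotated gene span, with the median span of each quintile on the horizontal axis. The share that fell climbs to 26.7% in the longest quintile on the deposited values and to 12.1% after quantile normalization, and is 3.6% once the trend with span is removed.

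The deleted gene was lower on every N1c_RBPJdel array. Rbpj (transcript cluster 10521913, chromosome 5) had intensities of 175, 258 and 201 in N1c_RBPJdel and 571, 472, 470.3 and 483 in control Treg. The groups do not overlap, and the level in control Treg was 2.38-fold that in N1c_RBPJdel Treg (log2 change -1.25 ± 0.13, n = 3 and 4, adjusted p = 0.000124). The call held in all 22 alternatives, with changes from -1.41 to -0.56. RBPJdel Treg, in which Rbpj is deleted without active Notch1, averaged 267, and the difference of N1c_RBPJdel from them was -0.35 ± 0.13 (adjusted p = 0.14). A second, dim transcript cluster of the gene (10521911) averaged 60.8 in N1c_RBPJdel and 55.2 in control Treg and changed by 0.14. Which exons of the gene the probes read was not examined. Notch1 had 896, 1239 and 922 in N1c_RBPJdel and 1443, 1367, 1374 and 836 in control Treg, with overlapping groups and a change of -0.28 ± 0.20 (adjusted p = 0.379). N1c Treg, which also carry R26N1c, averaged 1252 and differed from control by 0.03 ± 0.18, not past the threshold. Whether the probes of Notch1 read the R26N1c transcript was not examined.

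Most canonical Notch targets did not differ detectably between N1c_RBPJdel and control Treg. Of 15 measured targets 1 fell (Dtx1), 1 rose (Hey1) and 13 did not pass the test, and the median change was 0.05 against 0.02 for all genes. In N1c against control (1.65% of genes called), Hes1, Hey1, Hey2, Heyl, Dtx1 and Nrarp rose and Myc fell. Hes5 (-0.06), Hes6 (0.155), Hes7 (-0.009), Notch3 (0.025), Ptcra (-0.044), Ccnd1 (0.004), Ccnd3 (-0.471) and Bhlhe40 (0.613) did not pass there. Where no response passed there, a missing change in N1c_RBPJdel does not show that a response was lost. Hes1, a repressor and the best-known target, had 62.9, 108 and 70.6 in N1c_RBPJdel and 68.0, 55.1, 67.9 and 72.7 in control Treg, which overlap (0.26 ± 0.27, adjusted p = 0.571). In N1c Treg, which keep Rbpj, Hes1 averaged 626, and N1c_RBPJdel differed from them by -3.00 ± 0.27 (adjusted p = 1.66e-06). N1c_RBPJdel likewise differed from N1c by -2.23 ± 0.11 for Heyl (adjusted p = 3.42e-09), -1.84 ± 0.13 for Hey1 (adjusted p = 9.17e-08) and -1.53 ± 0.24 for Nrarp, a feedback inhibitor of Notch (adjusted p = 0.000845). The background share of genes called in N1c_RBPJdel against N1c is 9.23%. Against control the same 3 genes differed by 0.34 ± 0.11, 0.43 ± 0.13 and -0.06 ± 0.24 (adjusted p = 0.0737, 0.0418 and 0.895). The Hey1 call was lost in 14 of 22 alternatives, including without each N1c_RBPJdel array (0.52 without array 1, 0.33 without array 2 and 0.46 without array 3) and without control 2 (0.42), 3 (0.35) or 4 (0.46), with adjusted p of 0.0557 to 0.129 in those 6 fits.

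Dtx1 was the one Notch target that fell. Dtx1, an E3 ligase of the Deltex family that takes part in Notch signalling and T cell anergy, had 629.6, 1276 and 630.3 in N1c_RBPJdel and 2001, 1475, 1968 and 1242 in control Treg. Array 2 of N1c_RBPJdel lay within the control range and the other 2 arrays below it. The gene fell by 1.04 ± 0.23 on the log2 scale (adjusted p = 0.0117). Without N1c_RBPJdel array 1 the change was -0.87 (adjusted p = 0.0679, range 0.00103 to 0.493 over the alternatives), and with the span trend removed -0.85 (adjusted p = 0.0307). Dtx1 averaged 378 in RBPJdel Treg, so N1c_RBPJdel lay 1.08 ± 0.23 above RBPJdel (adjusted p = 0.0252; 2.29% of genes are called in that comparison) and differed from N1c, whose average was 4537, by -2.51 ± 0.23 (adjusted p = 2e-06).

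**Figure D2:**
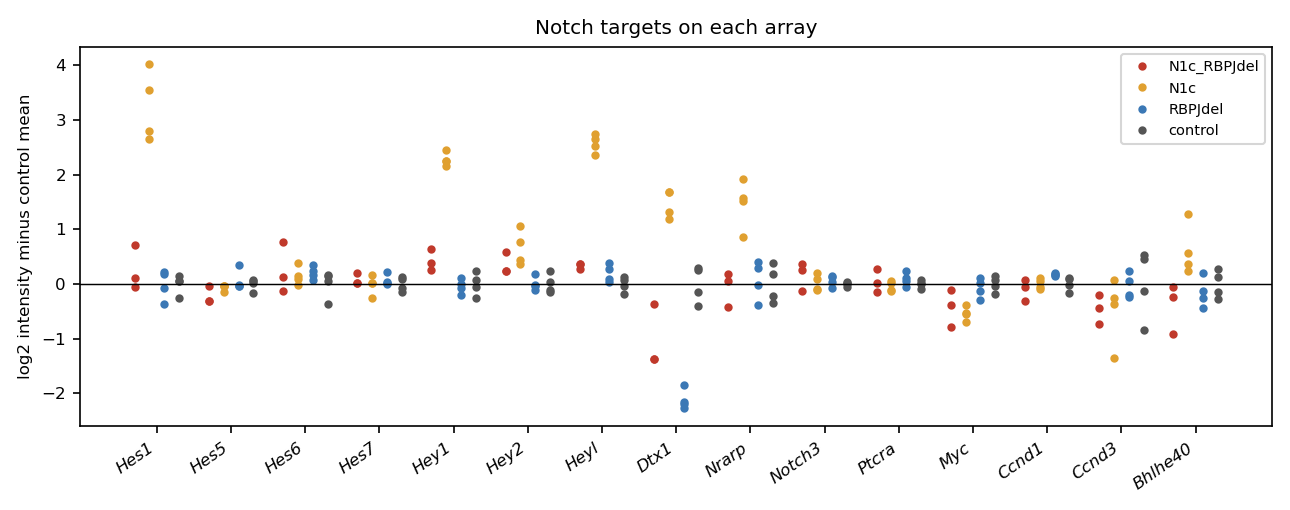
Log2 intensity of 15 Notch targets on each array of N1c_RBPJdel, N1c, RBPJdel and control Treg, each minus the mean of the control arrays. Hes1, Hey1, Heyl, Dtx1 and Nrarp stand highest in N1c Treg, and Dtx1 is low in RBPJdel and on 2 of 3 N1c_RBPJdel arrays.

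Among other components of the pathway, 7 of 32 measured members fell and none rose, and 5 fell after quantile normalization, with 1 rising. Span-adjusted values gave 2 that fell and 1 that rose. On the deposited values, between 2 (without N1c_RBPJdel array 1) and 9 (without array 2) fell when single arrays were left out, with 4, 3 and 4 without control 2, 3 and 4. The median gene span of the list is 37 kb. The background share that fell is 5.12% of all genes. Among brighter genes it is 9.92%, and 12.6% in the span quintile with a median of 40.6 kb. The calls of 2 members held, Rbpj itself and Poglut1, the glucosyltransferase that modifies the Notch extracellular domain. Poglut1 had 350.0, 421 and 286 in N1c_RBPJdel and 515, 544, 464 and 494 in control Treg, without overlap (-0.53 ± 0.11, adjusted p = 0.0113, span-adjusted -0.39, adjusted p = 0.0247). The share of all genes whose arrays do not overlap is 18.7%, 9.11% with N1c_RBPJdel higher and 9.57% with it lower. The corepressor Spen changed by -0.78 ± 0.18 (adjusted p = 0.0172) and the coactivator Crebbp by -0.58 ± 0.13 (adjusted p = 0.0134). Both calls were lost without N1c_RBPJdel array 1 (Spen -0.58, adjusted p = 0.0949, range 0.00266 to 0.335; Crebbp -0.48, adjusted p = 0.0709, range 0.00331 to 0.297) and on span-adjusted values. Spen was also lost without control 3 (-0.75, adjusted p = 0.0523).

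Genes of effector Treg were higher. On the effector Treg list 9 of 24 measured genes rose and none fell, with a median change of 0.34. After quantile normalization 11 rose, and on span-adjusted values 13, and 8 to 10 rose when any 1 array was left out. The background share of genes that rose is 3.77%. The calls of 7 members held (Ccr2, Cxcr3, Fgl2, Id2, S100a4, Tbx21 and Tigit), and the other 2 were Klrg1 and Prdm1. The median gene span of the list is 10.2 kb. Members that did not pass include Il10 (0.12), Ctla4 (-0.09), Icos (0.17) and Irf4 (-0.25).

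Cxcr3, the receptor that guides cells to sites of type 1 inflammation, had 1346, 1870.5 and 1365 in N1c_RBPJdel and 534, 496, 498 and 567 in control Treg. Every N1c_RBPJdel array lay above every control array, and the mean was 2.88-fold higher (log2 1.53 ± 0.17, adjusted p = 0.000242). Tbx21, the transcription factor T-bet that is known to drive Cxcr3, had 295, 453 and 264 in N1c_RBPJdel and 202, 184, 132 and 192 in control Treg, also without overlap (0.90 ± 0.19, adjusted p = 0.0106). Tigit, an inhibitory receptor that marks strongly suppressive Treg, had 2104, 2488 and 2047 against 1259, 1225, 1024 and 1251 in control Treg (0.90 ± 0.14, adjusted p = 0.00301). The groups are apart there as well. Fgl2, a secreted effector molecule of Treg, had 339, 340.3 and 321 in N1c_RBPJdel and 186, 164, 135 and 125 in control Treg (1.15 ± 0.20, adjusted p = 0.00413). The chemokine receptor Ccr2 had 427, 374 and 397 in N1c_RBPJdel and 179, 138, 194 and 172 in control Treg (1.24 ± 0.19, adjusted p = 0.00215). Both genes were higher on each N1c_RBPJdel array than on any control array. The calcium-binding protein gene S100a4 rose by 1.22 ± 0.26 (adjusted p = 0.0108). Id2, an inhibitor of E-protein transcription factors, rose by 0.73 ± 0.14 (adjusted p = 0.00812), and Prdm1, which encodes Blimp-1 of effector Treg, rose by 0.52 ± 0.12 (adjusted p = 0.0154; 0.47 without control 3, adjusted p = 0.0524, range 0.00244 to 0.0524). Id2 and Prdm1 were picked after their values were seen. Klrg1, a receptor of terminally differentiated Treg, had 970.2, 963 and 728 in N1c_RBPJdel and 559, 425, 533 and 507 in control Treg (0.80 ± 0.17, adjusted p = 0.0106), and its call was lost without N1c_RBPJdel array 1 (0.73, adjusted p = 0.0528, range 0.00148 to 0.0528).

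For Cxcr3 and Tigit the average of RBPJdel Treg lay between those of N1c_RBPJdel and control Treg. Cxcr3 averaged 1509, 739.9, 1219.5 and 523 in N1c_RBPJdel, N1c, RBPJdel and control Treg. RBPJdel lay 1.22 ± 0.16 above control (adjusted p = 0.00172), and 0.111% of genes are called in that comparison. Of the genes of this paragraph only Cxcr3 was called there. N1c_RBPJdel differed from RBPJdel by 0.31 ± 0.17 (adjusted p = 0.32), which is not past the threshold, and from N1c by 1.03 ± 0.17 (adjusted p = 0.00156). For Tigit the averages in the same order of groups were 2205, 1110.1, 1742 and 1186, with differences of 0.34 ± 0.14 from RBPJdel (adjusted p = 0.18) and 0.99 ± 0.14 from N1c (adjusted p = 0.000375). For Klrg1 and Ccr2 the difference from RBPJdel passed the test. Klrg1 averaged 879, 441, 421 and 503, and N1c_RBPJdel lay 1.06 ± 0.17 above RBPJdel (adjusted p = 0.00662) and 0.99 ± 0.17 above N1c (adjusted p = 0.00163). Ccr2 lay 0.93 ± 0.19 above RBPJdel (adjusted p = 0.0205) and 0.90 ± 0.19 above N1c (adjusted p = 0.00686). Fgl2, Tbx21 and S100a4 did not pass against RBPJdel. Their differences were 0.305 ± 0.199 (adjusted p = 0.395), 0.305 ± 0.19 (adjusted p = 0.371) and 0.60 ± 0.26 (adjusted p = 0.191). These comparisons share arrays, and each value is its own test.

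Type 1 genes rose in part. Of 20 measured members of the Th1 list 5 rose (Ccl5, Cxcr3, Ccl3, Tbx21 and Il18rap) and none fell, with a median of 0.26, and 7 rose after quantile normalization (4 to 6 when any 1 array was left out). The background share that rose is 3.77%, and 3.15% after quantile normalization. Ccl5, a chemokine of activated and cytotoxic T cells, had 2322, 3237 and 1963 in N1c_RBPJdel and 533, 650.2, 469 and 551 in control Treg. The groups are far apart, with a 4.48-fold higher mean (log2 2.16 ± 0.26, adjusted p = 0.00036). In RBPJdel Treg Ccl5 averaged 1694 and in N1c Treg 229.9, and N1c_RBPJdel differed from RBPJdel by 0.53 ± 0.26 (adjusted p = 0.247). RBPJdel differed from control by 1.63 ± 0.24 (adjusted p = 0.00459; 0.111% of genes called). N1c differed from control by -1.25 ± 0.24 (adjusted p = 0.00813; 1.65% of genes called). Ccl3, a chemokine for monocytes and T cells, had 131, 173 and 117 in N1c_RBPJdel and 52.3, 61.3, 57.7 and 85.9 in control Treg, without overlap (1.13 ± 0.22, adjusted p = 0.00707). It lay 1.21 ± 0.22 above RBPJdel (adjusted p = 0.0122). The cytokine genes Ifng (0.04, adjusted p = 0.963) and Tnf (-0.27, adjusted p = 0.447) did not pass. Il18rap, a subunit of the interleukin 18 receptor, rose by 0.64 ± 0.16 (adjusted p = 0.0212), a call lost without N1c_RBPJdel array 3 (0.54, adjusted p = 0.0722), control 3 (0.61, adjusted p = 0.0579) and control 4 (0.58, adjusted p = 0.0585, range 0.0111 to 0.194). Both chemokines named here were the 2 of 13 measured chemokine genes that rose, and none fell. The number that rose was 4 without N1c_RBPJdel array 1 and 3 without N1c_RBPJdel array 2, array 3 or control 5.

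Outside the lists, Lgmn and Glrx were among the strongest rises. Lgmn encodes legumain, a lysosomal protease, and had 815, 902 and 704 in N1c_RBPJdel and 193, 194, 230.4 and 238 in control Treg. The groups are apart by a factor of 3.77 in their means (log2 1.91 ± 0.14, adjusted p = 1.17e-06). Lgmn averaged 559 in N1c and 596 in RBPJdel Treg, and N1c_RBPJdel differed from N1c by 0.52 ± 0.14 (adjusted p = 0.0275) and from RBPJdel by 0.43 ± 0.14 (adjusted p = 0.1). Both single mutants were called above control, N1c by 1.39 ± 0.13 (adjusted p = 3.87e-06) and RBPJdel by 1.485 ± 0.13 (adjusted p = 3.65e-05). Of all genes 1.65% and 0.111% are called in those comparisons. Glrx, which encodes the redox protein glutaredoxin, had 1542, 1659.7 and 1050.2 in N1c_RBPJdel and 708, 586, 657 and 555 in control Treg (1.16 ± 0.18, adjusted p = 0.00305). Rises in S100a6 (1.18), S100a11 (1.40), the telomerase RNA gene Terc (1.35), the small RNA gene Rny1 (2.16), Sapcd1 (1.24) and the transcript AY036118 (1.18) were called on the deposited values and did not hold. Leaving out N1c_RBPJdel array 1 gave adjusted p of 0.083 for S100a6, 0.0864 for Terc, 0.0643 for Sapcd1 and 0.0976 for AY036118. The calls of S100a6, S100a11, Terc, Rny1, Sapcd1 and AY036118 were lost in 6, 15, 10, 16, 3 and 10 of 22 alternatives.

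**Figure D3:**
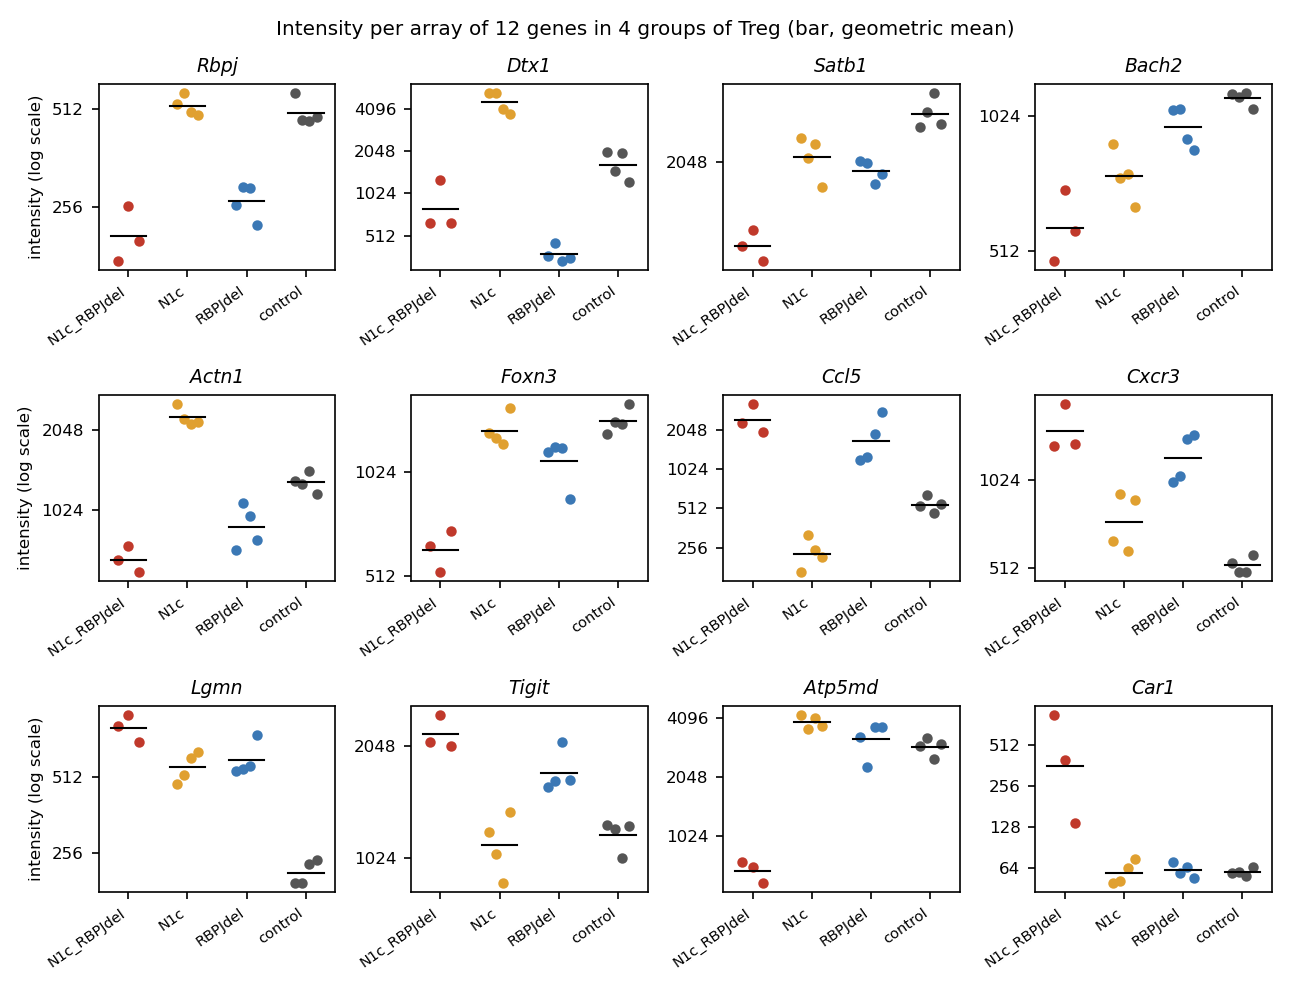
Intensity on each array (log scale) of 12 genes in N1c_RBPJdel, N1c, RBPJdel and control Treg, with a bar at the geometric mean. Rbpj, Satb1, Bach2, Actn1, Foxn3 and Atp5md lie below all control arrays on all 3 N1c_RBPJdel arrays, Ccl5, Cxcr3, Lgmn, Tigit and Car1 lie above them, and Dtx1 overlaps.

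Genes of resting and naive-like T cells were lower. Of 12 measured members of the resting T cell list 7 fell and none rose, with a median of -0.50, and 6 fell after quantile normalization. The background share that fell is 5.12% on the deposited values and 2.76% after quantile normalization. When any 1 array was left out 6 to 8 fell, and 1 rose only without control 5. These are long genes, with a median span of 87.3 kb, and 4 fell on span-adjusted values, where the median was -0.37. The background share that fell on that scale is 1.75%. Among brighter genes in the 2 quintiles of longest span (medians 40.6 kb and 103 kb), 12.6% and 26.7% fell on the deposited values. After quantile normalization these shares were 4.57% and 12.1%. The calls of 5 members held (Satb1, Actn1, Bach2, S1pr1 and Foxo1), and Bcl2 and Foxp1 were the others. Ccr7 (-0.08), Lef1 (-0.26), Klf2 (-0.43), Id3 (-0.43) and Il7r (0.35) did not pass.

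Satb1, a chromatin organiser of developing and naive T cells, had 1259, 1384 and 1155 in N1c_RBPJdel and 2509.8, 2743, 3062 and 2551 in control Treg. No array of one group reached the other, and the change was -1.10 ± 0.11 (adjusted p = 9.9e-05), with -0.82 on span-adjusted values (adjusted p = 0.00105). Bach2, a repressor that keeps T cells from effector differentiation, had 486, 699.7 and 566 in N1c_RBPJdel and 1146, 1129, 1151 and 1059 in control Treg, again apart (-0.96 ± 0.13, adjusted p = 0.00116; span-adjusted -0.68, adjusted p = 0.00392). Its annotated span is 348 kb. Foxn3, a forkhead repressor with a span of 374 kb, had 626, 526 and 690.1 in N1c_RBPJdel and 1318, 1424, 1402 and 1604 in control Treg (-1.23 ± 0.13, adjusted p = 0.000156; span-adjusted -0.97, adjusted p = 0.00105). Its second transcript cluster changed by -0.85. S1pr1, the receptor by which T cells leave lymphoid organs, is a short gene of 4.62 kb and had 1434, 1491 and 1376 in N1c_RBPJdel and 2489, 2509.6, 2122 and 2015 in control Treg. The groups are apart (-0.67 ± 0.12, adjusted p = 0.00523), and the span-adjusted change was -0.62 (adjusted p = 0.00487). Foxo1, a factor of naive T cell and Treg homeostasis, changed by -0.61 ± 0.11 (adjusted p = 0.00529) and was just outside the threshold on span-adjusted values (-0.34, adjusted p = 0.0501, range 0.00243 to 0.125). Bcl2, the anti-apoptotic gene, changed by -0.57 ± 0.11 (adjusted p = 0.00823), against -0.33 on span-adjusted values (adjusted p = 0.0954, range 0.00399 to 0.105 over its alternatives).

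Actn1, the actin crosslinker alpha-actinin-1, stood at different levels in the single mutants. It had 662, 746 and 597 in N1c_RBPJdel and 1316, 1276, 1434 and 1177 in control Treg, without overlap (-0.96 ± 0.13, adjusted p = 0.0013; span-adjusted -0.68, adjusted p = 0.00645). N1c Treg averaged 2277, above control by 0.81 ± 0.12 (adjusted p = 0.000951; 1.65% of genes are called in that comparison), and RBPJdel Treg averaged 880.1. N1c_RBPJdel differed from N1c by -1.77 ± 0.13 (adjusted p = 2.85e-07), and its difference from RBPJdel was -0.40 ± 0.13 (adjusted p = 0.104). Satb1 and Bach2 differed from RBPJdel as well, by -0.63 ± 0.11 (adjusted p = 0.0122) and -0.74 ± 0.13 (adjusted p = 0.0119). From N1c, Satb1 differed by -0.74 ± 0.11 (adjusted p = 0.000614), while for Bach2 the difference of -0.38 ± 0.13 was not past the threshold (adjusted p = 0.0725) and N1c differed from control by -0.58 ± 0.12 (adjusted p = 0.0155).

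The promoter windows of 3 of the lower genes are shown because they carry, or lack, the core of the RBPJ binding motif. Windows of 300 bases around the annotated start were taken from RefSeq (GRCm38.p6), and the letters GTGGGAA were searched on both strands, with a match in capitals (the reverse strand reads TTCCCAC). Dtx1 (chr5:120711620-120711919, minus strand) has no match, Actn1 (chr12:80260314-80260613, minus strand) has 1 that begins 226 bases before the start, and Satb1 (chr17:51812005-51812304, minus strand) has 1 on the reverse strand, 70 bases before it. Satb1 has 5 such windows, of which the other 4 hold no match, and the window printed was picked for its match, while Dtx1 and Actn1 have 1 window each.
Dtx1: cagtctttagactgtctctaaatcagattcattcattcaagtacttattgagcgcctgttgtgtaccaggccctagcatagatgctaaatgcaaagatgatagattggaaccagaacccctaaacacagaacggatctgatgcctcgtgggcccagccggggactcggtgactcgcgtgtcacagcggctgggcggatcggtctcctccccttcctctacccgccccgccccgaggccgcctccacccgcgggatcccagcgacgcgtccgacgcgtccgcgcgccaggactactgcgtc
Actn1: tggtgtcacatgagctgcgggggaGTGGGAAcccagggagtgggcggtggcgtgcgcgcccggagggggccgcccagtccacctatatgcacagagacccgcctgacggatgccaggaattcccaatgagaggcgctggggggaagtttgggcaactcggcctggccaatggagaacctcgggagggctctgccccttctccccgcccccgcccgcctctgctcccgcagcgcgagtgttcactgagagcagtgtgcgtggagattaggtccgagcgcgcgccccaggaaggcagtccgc
Satb1: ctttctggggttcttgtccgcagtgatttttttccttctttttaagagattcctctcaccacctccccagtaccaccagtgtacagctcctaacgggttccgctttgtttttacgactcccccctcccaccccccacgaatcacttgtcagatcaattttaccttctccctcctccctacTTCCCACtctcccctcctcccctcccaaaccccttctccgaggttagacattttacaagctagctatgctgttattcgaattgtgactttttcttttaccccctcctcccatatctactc
The motif was found in 6.38% of all 32851 windows and in 7.09% of the tested genes with a window. It was found in 11 of 163 genes (6.75%) that fell and held, and in 8 of 101 genes (7.92%) that rose and held, shares near that of all tested genes. Of the Notch targets, 9 have a window and 3 of these (33.3%) hold the motif, namely Hes5, Hes7 and Hey2. A match is a run of letters in this window and does not show that the factor binds.

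Receptors for interleukin 6 fell together. Il6st, the signalling subunit gp130, had 1223, 1468 and 1415 in N1c_RBPJdel and 2531, 2530.3, 2295 and 2154 in control Treg. Il6ra, the interleukin 6 binding subunit, had 933, 1309 and 1022 in N1c_RBPJdel and 1856, 1807, 1948 and 1475 in control Treg. Neither gene overlaps between the groups, and they changed by -0.80 ± 0.13 (adjusted p = 0.00276) and -0.71 ± 0.14 (adjusted p = 0.00693), with -0.57 and -0.49 on span-adjusted values (adjusted p = 0.00727 and 0.0248). Of 21 measured cytokine receptor genes 5 fell and 1 rose on the deposited values, against 3 and 3 after quantile normalization, so the split of the list depends on the scaling. The number that fell was 2 without N1c_RBPJdel array 1 or 3 or control 2, 3 or 4. On the deposited values 5.12% of all genes fell and 3.77% rose, and of brighter genes 9.92% and 2.1%. After quantile normalization 2.76% of all genes fell and 3.15% rose. Il4ra (-0.47) and Il21r (-0.54) were called on the deposited values, and these calls were lost in 14 and 12 of 22 alternatives. Il2ra, the high-affinity chain of the interleukin 2 receptor, changed by -0.15 (adjusted p = 0.398).

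Receptors for homing and adhesion moved in both directions. Of 19 homing receptors 4 rose (Cxcr3, Ccr2, Cxcr5 and Ccr4) and 2 fell (S1pr1 and Gpr183), and the calls of Cxcr3, Ccr2 and S1pr1 held. The number that rose was 2 without N1c_RBPJdel array 1 or 2 or control 3, 4 or 5, and the number that fell was 1 without N1c_RBPJdel array 1 or 3 or control 2 or 4. Of all genes 3.77% rose and 5.12% fell, and of brighter genes 2.1% and 9.92%. The same shares stand beside the integrin counts below. Cxcr5, the receptor of follicular cells, had 256, 479 and 235 in N1c_RBPJdel and 242, 172, 174 and 149 in control Treg, with N1c_RBPJdel array 2 well above the rest (0.76 ± 0.22, adjusted p = 0.0427). Its change without that array was 0.44 (adjusted p = 0.139, range 0.0056 to 0.174), and the call was lost without N1c_RBPJdel array 1 (0.89) or control 3 (0.73), 4 (0.74) or 5 (0.67) too. The Ccr4 call was lost in 7 of 22 alternatives. Among 13 integrin genes Itga1 and Itga2 rose and Itga6 fell, and the Itga2 call was lost in 11 of 22 alternatives. Itga6, a laminin receptor subunit, had 1332, 989.6 and 1205 in N1c_RBPJdel and 2266, 2394, 1944 and 1884 in control Treg (-0.85 ± 0.14, adjusted p = 0.00341; span-adjusted -0.59, adjusted p = 0.0212). Itga1, a collagen receptor subunit, was dim, with 68.7, 46.8 and 67.0 in N1c_RBPJdel and 37.2, 39.8, 39.8 and 36.9 in control Treg (0.64 ± 0.13, adjusted p = 0.00734). Both are apart between the groups, and both calls held.

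Other lower genes with calls that held were Clec2i, Tbrg3, Sidt1, Igf1r and Etv3. Clec2i, a C-type lectin-like gene whose product is a ligand of an NK cell receptor, had 472, 422 and 385 in N1c_RBPJdel and 1039.9, 957, 761 and 966 in control Treg, without overlap (-1.12 ± 0.14, adjusted p = 0.000506; span-adjusted -1.05, adjusted p = 0.000915). Igf1r, the receptor for insulin-like growth factor 1, had 423, 605 and 402 in N1c_RBPJdel and 886, 1153, 834 and 743 in control Treg (-0.93 ± 0.17, adjusted p = 0.00546), and it differed from RBPJdel by -0.80 ± 0.17 (adjusted p = 0.0263). N1c Treg averaged 497 for Igf1r, with a difference of N1c_RBPJdel from N1c of -0.08 ± 0.17 (adjusted p = 0.795) and of N1c from control of -0.84 ± 0.16 (adjusted p = 0.00651). Tbrg3 changed by -1.23 ± 0.19 (adjusted p = 0.00246), Etv3, an ETS family repressor, by -0.91 ± 0.15 (adjusted p = 0.00361), and Sidt1, which encodes a transmembrane protein, by -1.03 ± 0.15 (adjusted p = 0.00187). All 5 were also called on span-adjusted values, with changes of -1.05 for Clec2i, -0.65 for Igf1r, -1.19 for Tbrg3, -0.81 for Etv3 and -0.75 for Sidt1.

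Some members of the signalling lists were lower on the deposited values, and fewer after rescaling. Of 29 measured T cell receptor signalling genes 7 fell (2 after quantile normalization and 1 on span-adjusted values). Of 30 PI3K and mTOR genes 8 fell (1 and 0), and of 20 survival and death genes 4 fell (2 and 0). The background share that fell is 5.12% of all genes, and among brighter genes it is 12.6% and 26.7% in the 2 quintiles of longest span (medians 40.6 kb and 103 kb), so nothing particular to the T cell receptor and PI3K lists is read from their counts. No member of these lists rose on any of the 3 scales. The counts were 1, 1 and 2 without N1c_RBPJdel array 1, 10, 13 and 3 without array 2, 4, 6 and 3 without array 3, 2, 2 and 2 without control 2 or control 3, and 2, 3 and 2 without control 4. Their median gene spans are 45.4 kb, 67.4 kb and 23.3 kb. Prkcq, the protein kinase C of the T cell receptor synapse, had 2918, 2801 and 3246 in N1c_RBPJdel and 4185, 4335, 4407 and 4103 in control Treg, without overlap (-0.51 ± 0.09, adjusted p = 0.00506). Its span is 129 kb, and the span-adjusted change was -0.30 (adjusted p = 0.0596, range 0.00306 to 0.0596 over its alternatives). Rictor, the defining subunit of mTORC2, changed by -0.43 ± 0.09 (adjusted p = 0.011), by -0.29 after quantile normalization (adjusted p = 0.0899) and by -0.15 on span-adjusted values (adjusted p = 0.342), and it was not called without N1c_RBPJdel array 1 (-0.39, adjusted p = 0.0506, range 0.00648 to 0.342). Pik3r1, a regulatory PI3K subunit, and Apaf1, of the apoptosome, changed by -0.38 and -0.51 on the deposited values and by -0.12 and -0.24 on span-adjusted values (adjusted p = 0.43 and 0.167).

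**Figure D4:**
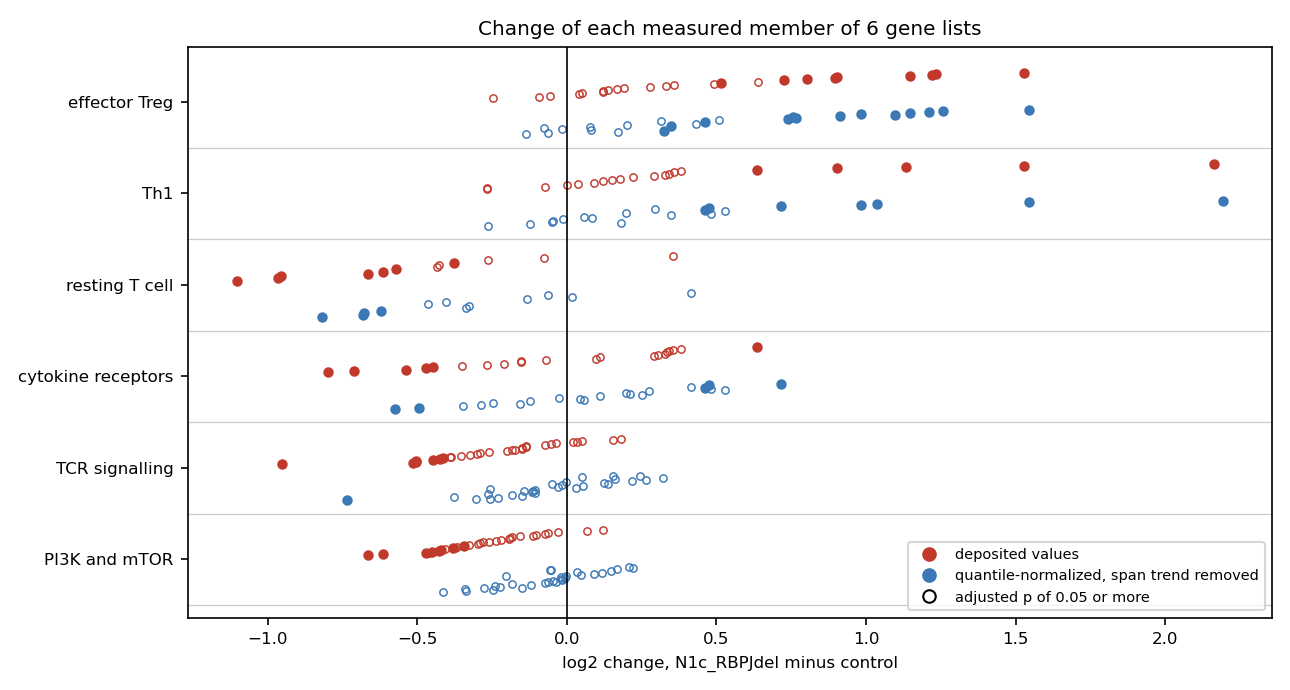
Log2 change of each measured member of 6 gene lists in N1c_RBPJdel minus control, on the deposited values (red) and on span-adjusted values (blue), filled where the adjusted p is under 0.05. Effector Treg and Th1 genes have called members to the right of 0 only, resting T cell genes to the left only, and the T cell receptor and PI3K lists keep 1 and 0 called members on span-adjusted values.

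One mitochondrial gene fell more than any other called gene. Atp5md, a gene for a minor ATP synthase subunit, had 755, 708 and 588 in N1c_RBPJdel and 2926, 3238, 2528 and 3003 in control Treg. The groups are far apart, with a control level 4.28-fold that of N1c_RBPJdel (log2 -2.10 ± 0.15, adjusted p = 1.17e-06). Its 3 transcript clusters changed by -2.10, -1.99 and -2.09, and near-identical copies of the gene could share probes. N1c_RBPJdel also differed from RBPJdel by -2.22 ± 0.15 (adjusted p = 6.05e-07) and from N1c by -2.52 ± 0.15 (adjusted p = 2.04e-08). The other oxidative phosphorylation genes did not follow it, since 5 of 84 measured members rose and Atp5md alone fell (11 and 1 after quantile normalization). The number that rose was 0 without N1c_RBPJdel array 1, control 3 or control 4, 1 without N1c_RBPJdel array 2 and 2 without control 2. Ndufs8, a core subunit of complex I, rose by 0.66 ± 0.17 (adjusted p = 0.028), a call lost without N1c_RBPJdel array 1 (0.68, adjusted p = 0.0771) or 2 (0.50, adjusted p = 0.0757) and control 3 (0.67, adjusted p = 0.0651) or 4 (0.63, adjusted p = 0.0695, range 0.00687 to 0.0771). Among 57 ribosomal protein genes 4 fell and none rose, among 18 glycolysis genes 1 rose and 1 fell, and among 27 histone genes 2 rose and 1 fell. The ribosomal count was 0 without N1c_RBPJdel array 1, 1 without control 2 or 3 and 2 without control 4, and the glycolysis genes that fell numbered 0 without N1c_RBPJdel array 1 and 4 without array 2. The glycolysis rise was 0 without N1c_RBPJdel array 2 or control 3 or 4. The histone gene that fell, H2bc4, was not called in 17 of 22 alternatives, including without N1c_RBPJdel array 1 or 3 or any 1 control array, and 1 histone gene rose without N1c_RBPJdel array 1 or control 4. The background shares beside the counts of these lists are 3.77% of all genes that rose and 5.12% that fell. After quantile normalization 3.15% of all genes rose. The median gene span of the oxidative phosphorylation list is 7.15 kb. Among brighter genes in the 2 quintiles of shortest span (medians 3.66 kb and 11.2 kb), 4.87% and 2.23% rose on the deposited values. After quantile normalization these shares were 8.27% and 5.68%.

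No member was called by limma in the lists of 43 cell cycle genes, 21 immediate early genes, 11 heat shock genes and 15 chromatin silencing genes. Their median changes were -0.09, -0.23, -0.30 and -0.14. At an unadjusted p under 0.05 these lists had 2, 2, 4 and 6 lower members, and 1 heat shock gene was higher. Without N1c_RBPJdel array 2, 2 immediate early and 2 chromatin silencing genes were called lower, and without control 5, 2 chromatin silencing genes. Of 24 interferon response genes 1 fell (Stat2, -0.55, adjusted p range 0.00244 to 0.357), a call lost without N1c_RBPJdel array 1 (-0.52) or 3 (-0.47) and control 2 (-0.52) or 3 (-0.49). Among general Treg signature genes 3 of 30 rose (Fgl2, Tigit and Klrg1) and none fell. Of 25 coreceptor genes 2 rose and 1 fell, of 15 cytotoxic granule genes 2 rose, and the Th2, Th17 and follicular helper lists had 1 rise and 1 fall of 10, 1 fall of 9 and 1 rise of 12. With single arrays left out, cytotoxic granule rises ran from 0 (without N1c_RBPJdel array 1) to 3 (without array 3), and 2 of these genes fell without N1c_RBPJdel array 2 or control 5. The coreceptor fall was absent without N1c_RBPJdel array 1 or control 2, 3 or 4, and 1 coreceptor gene rose without N1c_RBPJdel array 1. The Th2 and follicular helper rises were both 0 without N1c_RBPJdel array 1 or 2 or control 3, 4 or 5, 2 follicular helper genes rose without control 2, and the Th2 fall was 0 without N1c_RBPJdel array 1 or 3 or control 2, 3 or 4. The Treg signature genes that fell numbered 3 without N1c_RBPJdel array 2 and 2 without control 5. Of all genes 3.77% rose and 5.12% fell, the background shares for the lists of this paragraph.

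Some markers of other cell types were higher, many of them at low intensity. Of 12 B cell markers 6 rose, of 12 neutrophil markers 5, of 8 erythroid markers 2, of 9 CD8 T cell markers 3, of 6 plasma cell markers 2, of 11 NK cell markers 2, of 15 myeloid markers 2 and of 8 conventional CD4 T cell markers 1. After quantile normalization the counts in this order were 4, 4, 2, 4, 1, 2, 1 and 0. With the array spread as a covariate they were 3, 4, 2, 2, 1, 1, 0 and 0. The background share that rose is 3.77% of all genes and 5.45% of dimmer genes, and 2 of 15 or 1 of 8 is close to the 11.9% of olfactory and vomeronasal receptor genes given below. Without N1c_RBPJdel array 1 the B cell and neutrophil counts were 3 and 3, without control 3 also 3 and 3, and without control 2 they were 4 and 3. The counts that rose when single arrays were left out ran from 1 to 4 for the CD8, NK cell and myeloid lists and from 1 to 2 for the plasma cell list. None fell on the deposited values, and none of 10 dendritic, 6 platelet or 3 gamma delta T cell markers was called by limma, against 3, 2 and 0 of them higher at an unadjusted p under 0.05. Most of them are dim genes, but Ccl5 and Nkg7 of the CD8 list are bright. These 2 genes averaged 2453 and 873 in N1c_RBPJdel and 547 and 432 in control Treg. On every array 9 of the 12 B cell and 10 of the 12 neutrophil markers lay below the array's median. The summed intensity of the B cell list was 1106 to 1487 on N1c_RBPJdel and 953 to 968 on control arrays, that of the neutrophil list 902 to 1073 on N1c_RBPJdel and 680.3 to 784 on control arrays, and that of the erythroid list 905 to 1831 on N1c_RBPJdel and 824 to 909 on control arrays. Of the B cell markers that rose, Cd22 averaged 143 in N1c_RBPJdel, 1380 in N1c, 65.9 in RBPJdel and 86.1 in control Treg (N1c minus control 4.00 ± 0.16, adjusted p = 6.24e-11). Its highest average was thus in N1c Treg. Without Cd22, 5 of 11 B cell markers rose, and their summed intensity was 991 to 1292 on N1c_RBPJdel and 858 to 895 on control arrays. The sort excluded B220+, CD11b+ and Gr1+ cells, red cells were lysed, and the sorter differed between the groups. In bulk RNA, more cells of a type and more RNA per cell cannot be told apart.

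Car1, the carbonic anhydrase of red cell precursors, had the largest rise of all called genes, with 852, 400.0 and 137 in N1c_RBPJdel and 58.8, 60.1, 56.6 and 65.9 in control Treg. Each N1c_RBPJdel array is above the controls, but the arrays differ by several fold among themselves (2.58 ± 0.37, adjusted p = 0.0018). Slc4a1, the anion exchanger of red cells, had 205, 155 and 152 in N1c_RBPJdel and 105, 113, 92.6 and 117 in control Treg (0.67 ± 0.13, adjusted p = 0.00812). The other 6 erythroid markers did not pass. Cd79a, a chain of the B cell receptor complex, had 69.9, 57.5 and 50.1 in N1c_RBPJdel and 29.5, 32.6, 34.3 and 36.3 in control Treg (0.83 ± 0.14, adjusted p = 0.00413). Ms4a1, which encodes CD20, had 84.9, 50.4 and 44.2 in N1c_RBPJdel and 28.2, 29.9, 25.7 and 35.8 in control Treg (0.95 ± 0.17, adjusted p = 0.00512). Both are apart between the groups, at levels below the array medians of 107.1 to 117.2. Jchain, of antibody-secreting cells, rose by 1.16 ± 0.14 (adjusted p = 0.00036), and H2-Ea, a chain of MHC class II, had 109.97, 91.3 and 74.9 in N1c_RBPJdel and 38.4, 40.2, 34.8 and 40.8 in control Treg (1.24 ± 0.12, adjusted p = 5.41e-05). Of 9 measured class II genes 4 rose, 1 without N1c_RBPJdel array 1, control 2 or control 3, and 2 without N1c_RBPJdel array 2. The background share that rose is 3.77% of all genes and 5.45% of dimmer genes. Among neutrophil genes S100a9 rose by 1.00 ± 0.14 (adjusted p = 0.00116), Ngp by 1.02 ± 0.21 (adjusted p = 0.0088) and Lcn2 by 0.50 ± 0.10 (adjusted p = 0.00717). These 9 genes each also differed between N1c_RBPJdel and RBPJdel, by 0.50 to 2.53.

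Other dim genes were higher on N1c_RBPJdel arrays 1 and 3 and near the control level on array 2, where H2-Ea and Cd79a still lay above every control array. Of 1194 olfactory and vomeronasal receptor genes, a family picked after its values were seen and expressed in sensory neurons, 142 rose and none fell on the deposited values (11.9% rose, median 0.26), and 50 rose and 9 fell after quantile normalization (median 0.10). Their median relative to the control mean was 0.47, 0.03 and 0.25 on N1c_RBPJdel arrays 1, 2 and 3, against -0.06, -0.05, -0.05 and 0.17 on control arrays 2, 3, 4 and 5. The defining CD8 genes did not pass the test, as Cd8a changed by -0.13 (adjusted p = 0.686) and Cd8b1 by 0.11 (adjusted p = 0.644). The CD8 list's 3 rises were Ccl5, Gzmk (0.74, and 0.72 without N1c_RBPJdel array 1, adjusted p = 0.0519, range 0.00182 to 0.244) and Nkg7 (1.02, lost in 11 of 22 alternatives). The part of other cell types in the rise of Ccl5 or the class II genes was not tested.

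**Figure D5:**
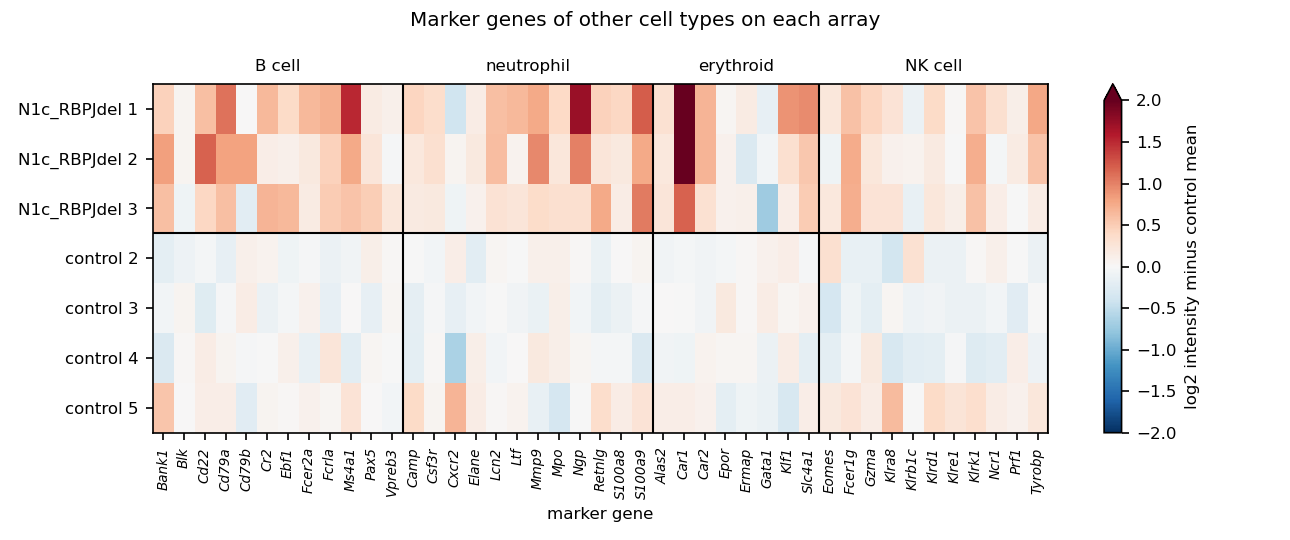
Log2 intensity of each measured B cell, neutrophil, erythroid and NK cell marker on the 3 N1c_RBPJdel arrays (top) and the 4 control arrays, minus the control mean. Car1 exceeds the end of the colour scale on N1c_RBPJdel arrays 1 and 2, Ms4a1 and Ngp are highest on array 1.

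Some genes passed the test only after quantile normalization, 227 higher and 99 lower. The largest rises of this kind were Rln3 (0.88), Plxnd1 (0.84), Uqcr11 (0.82), Aim2 (0.80) and Psmb10 (0.80), and the largest falls Mctp2 (-0.72), Nudt11 (-0.65), Trpm5 (-0.58), Pigr (-0.56) and Tcl1 (-0.56). The genes of these falls are dim. They averaged 38.4, 19.1, 34.6, 45.2 and 24.5 in N1c_RBPJdel and 57.5, 25.4, 46.5, 61.7 and 31.5 in control Treg. Array medians were 107.1 to 117.2. The groups overlap for Tcl1 on both scalings. Aim2, the cytosolic DNA sensor, had 787, 736 and 992 in N1c_RBPJdel and 539.9, 368, 568 and 688 in control Treg and changed by 0.66 ± 0.21 on the deposited values (adjusted p = 0.0576; after quantile normalization adjusted p = 0.0402). Psmb10, a subunit of the immunoproteasome, had 1182, 2243 and 1100.0 in N1c_RBPJdel and 1004, 1000.5, 940.3 and 763 in control Treg, with array 2 of N1c_RBPJdel above the other arrays (0.63 ± 0.24, adjusted p = 0.103; after quantile normalization adjusted p = 0.0405).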

How the data were processed

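Members, gene lists and tests were chosen with earlier results of these data known. Per the submitters' processing notes, the authors used Affymetrix Power Tools and RMA to make the deposited intensities. Neither version is given in the sources used here. They run from 5.61 to 18029.7 on a linear scale, with array medians of 107.1 to 117.2, and were converted to log2. Of 24922 features, 21425 name 1 gene, 1399 several and 2098 none. The brightest feature of 921 genes with more than 1 was kept, no gene was removed for low intensity, and 19752 genes were tested.

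Group means were estimated from the 15 arrays together in limma 3.58.1 (R 4.3.3), with 11 residual plus 6.15 prior degrees of freedom. Two-sided p-values were adjusted over the 19752 genes by Benjamini-Hochberg at a threshold of 0.05. The p-values and standard errors reflect how far arrays of pooled mice differ within a group, estimated over the 4 groups together. They can understate the spread among N1c_RBPJdel arrays. Array weights, lower for arrays that vary more, were 0.62, 0.31 and 0.52 on N1c_RBPJdel arrays 1, 2 and 3. On control arrays 2, 3, 4 and 5 they were 2.86, 2.50, 1.13 and 0.47. The number of arrays limits the precision. The fit was also run on simulated data with independent noise, equal on all arrays. Those data hold no shift with sorter, brightness or gene span, so the run does not bear on such shifts. Geometric means are given for groups and log2 changes with the limma standard error (SE).

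Named genes are Rbpj, Notch1, Foxp3, the Notch targets, the 15 largest rises and 15 largest falls among called genes whose groups do not overlap, 5 and 5 called only after quantile normalization, and up to 4 called members of each list by smallest p. Predicted genes, receptor segments, olfactory receptors and small RNAs of the Mir, Snor and Rnu families were skipped. There were 28 gene lists and 12 marker lists, and a list is described by counts and its median. Quantile and cyclic loess normalization, single arrays left out and other fits were the alternatives. Span adjustment (loess, span 0.3, brighter and dimmer genes apart), an array-spread covariate and the rule on held calls were added after the data were seen. Residuals of arrays numbered 2 and 3 in both groups correlated at 0.237 and -0.048. These values are too few to settle whether the numbers pair the arrays, and the main fit has no block.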

Additional observations from a re-analysis of the deposited data

Results flagged for a closer look

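Among the 4 control arrays, 8 of 121 named genes had 1 array far from the other 3 by Dixon's test (gap to the nearest array over the range of the group). Chance flags about 1 in 20 groups. The N1c_RBPJdel group has 3 arrays and was not tested. Control 2 was high for Rbpj, at an intensity of 571.4. Control 5 was low for Notch1 (835.6), Spen (565.7) and Vav1 (960.8), and high for Cd74 (384.2). Control 4 was low for S100a11 (955.4) and Tigit (1024). Control 3 was low for Pik3r1 (2234).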

How the results depend on the processing

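Quantile normalization gave 1169 called genes (546 lower), cyclic loess 1075 (456 lower), quantile normalization with the span trend removed 870 (346 lower), and the array spread as a covariate 861 (394 higher, 467 lower). The 2 groups alone gave 406 (150 higher, 256 lower), and brighter genes only gave 239 higher. The replicate block gave 3767 (1595 higher, 2172 lower), although whether the numbers pair these arrays was not settled. With N1c_RBPJdel array 2 alone for its group, whose spread is then assumed to be that of the other groups, 732 genes were called (445 higher, 287 lower). Leaving out 1 array gave 530 genes (258 higher, 272 lower, without N1c_RBPJdel 1) to 3088 (1493 higher, 1595 lower, without N1c_RBPJdel 2), with 743, 675 and 850 without control 2, 3 and 4, of which 297, 243 and 315 were higher and 446, 432 and 535 lower. After quantile normalization it gave 571 (336 higher, 235 lower) without N1c_RBPJdel 1 and 669 lower genes without N1c_RBPJdel 2. The causes were not tested.

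Of 2633 values of named genes under the alternatives, 2030 kept their direction and side of the threshold, 517 lost the call, 72 gained one and 14 changed sign, none of them called. When single arrays were left out, Nrarp changed by -0.181 (without N1c_RBPJdel 2) to 0.117 (without N1c_RBPJdel 3), Ptcra by -0.057 (without N1c_RBPJdel 3) to 0.151 (without N1c_RBPJdel 1), Hes6 by -0.006 (without N1c_RBPJdel 2) to 0.447 (without N1c_RBPJdel 1) and Ccnd1 by -0.184 (without N1c_RBPJdel 3) to 0.007 (without N1c_RBPJdel 2). Nrarp was also above 0 without control 4 (0.070), with array weights (0.052), with the spread covariate (0.196), with N1c_RBPJdel 2 alone (0.179) and after quantile normalization without N1c_RBPJdel 3 (0.097), where Ptcra was -0.074. Notch1 was 0.015 with N1c_RBPJdel 2 alone, Ccnd3 0.032 with the covariate, Hes7 -0.032 with the span trend removed, and Hes1 -0.099 after quantile normalization without N1c_RBPJdel 2.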
